A study of Mus musculus with 9 samples.

Results

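The 3 functional and the 3 non-functional tumors of INS-p25OE mice were compared with each other, gene by gene. A pancreatic neuroendocrine tumor, or PanNET, is called functional when the hormone it releases raises the level in the blood. The members are the 6 tumor libraries (M1, M2 and M3 functional, M4, M5 and M6 non-functional) of the 9 libraries in the series, and the 3 libraries of normal islets were left out. Of 54347 genes listed, 15181 reached at least 1 CPM, a count scaled to the size of its library, in at least 3 of the 6 tumors and were tested, after the 37 mitochondrial genes had been removed.

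All 6 tumors came from mice that carry 2 transgenes in the C57BL/6 background, Ins2-rtTA and tetOp-p25GFP. The insulin promoter limits the doxycycline-dependent activator rtTA to beta cells, and doxycycline, given in the drinking water from weaning, switches on p25GFP, so functional and non-functional tumors share both transgenes and the drug. The titles of M1, M2 and M3 carry the word "Inulin", as spelled there, and the study calls these functional. Those of M4, M5 and M6 carry no such word. M2 is labelled Female and the other 5 are labelled Male, so the only female tumor is a functional one. The age of each mouse at collection and the plasma hormone level of each of these 6 mice were not used here, and each library is 1 tumor. The p-values below measure the spread between single tumors.

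Beta cells make insulin as proinsulin on the endoplasmic reticulum, cut it in the granules and release it when glucose closes a potassium channel and lets calcium in. A tumor of beta cells also holds vessels, connective tissue and immune cells, and it lies within acinar tissue, the part of the pancreas that makes digestive enzymes. Interferon, released in response to viral or cellular nucleic acid, acts on a receptor that activates a complex of STAT factors and IRF9. It switches on antiviral genes and the genes that load and display peptides on MHC class I.

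Each tumor was sequenced to between 36468280 and 63637175 counts, and 3 counts in a tumor, taken as the floor of detection, correspond to between 0.0483 and 0.146 CPM. Mitochondrial genes held 3.54 to 8.41% of the counts in 5 tumors and 32.1% in the non-functional M4. The sex of the female tumor matched its label: Xist, the RNA that silences an X chromosome, was at 62.3, 1268 and 0.769 CPM against 34.5, 0.343 and 0.287 CPM, and the Y-linked Ddx3y at 30.5, 0.0483 and 39.5 CPM against 34.2, 27.5 and 78.9 CPM, in the order M1, M2, M3 against M4, M5, M6 that is kept below. The male tumors M1 and M4 also carried Xist reads. Beta cell genes were present in every tumor, with Pdx1 at 226, 272 and 248 CPM against 172, 242 and 187 CPM, Nkx6-1 at 792, 648 and 353 CPM against 1584, 1011 and 746 CPM and Mafa at 288, 104 and 197 CPM against 276, 337 and 294 CPM. Over all tested genes the groups did not form 2 separate sets of tumors: the Euclidean distance of log2(CPM + 1) averaged 100.8 over the 6 pairs within a group (85.9 to 110.3) and 103.5 over the 9 pairs between groups (86.2 to 113.7).

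The gene for the induced protein was read first. Cdk5r1 encodes p35, the Cdk5 activator from which p25 is the fragment, and it measured 338, 229 and 471 CPM in M1, M2 and M3, and in M4, M5 and M6 208, 174 and 397 CPM. The 2 groups overlapped, with M3 and M6 the highest tumor of each group (log2 fold change 0.42, SE 0.40, functional minus non-functional as throughout). How much of this signal came from the transgene cannot be told apart from the mouse gene in a table of reads per gene. Cdk5, the kinase itself, lay just below the non-functional tumors in all 3 functional ones, at 43.5, 45.7 and 38.2 CPM against 47.8, 63.6 and 46.2 CPM (log2 fold change -0.31, SE 0.21). The gap between the groups was 1.01-fold, and once each tumor's trend with exon length was removed by an offset they overlapped (log2 fold change -0.12). Of the 16 tested members of the Cdk5 pathway list, Cdk5 and Rbl1 were the 2 whose groups did not overlap, 1 lower and 1 higher. Over all tested genes, groups did not overlap in 7.1% that were lower and 7.7% that were higher. The median log2 fold change of the list was 0.07. Rbl1, the retinoblastoma relative p107, measured 67.9, 59.3 and 77.6 CPM against 41.2, 36.3 and 45.7 CPM (log2 fold change 0.73, SE 0.20).

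No gene passed an adjusted p of 0.05 in either direction by the quasi-likelihood test of edgeR with Benjamini-Hochberg adjustment, and the smallest adjusted p was 0.451, for Amy2a5. At an unadjusted p under 0.05 there were 438 genes higher in functional tumors (2.89% of those tested) and 706 lower (4.65%). DESeq2, used as an alternative, called 7 genes higher (0.0461%) and 50 lower (0.329%), and limma-trend called 1 in each direction. The description below therefore rests on genes that lay apart, meaning that all 3 values of a group were above all 3 of the other. There were 1169 such genes higher in the functional tumors, 7.7% of the 15181 tested, and 1078 lower, 7.1%. Of those lower, 47 had passed the filter through the non-functional tumors alone and so had to lie apart. Of 20 genes that passed through the functional tumors alone, 17 lay apart and higher. Scaling by total counts alone, which raised the median log2 fold change of all genes to 0.186, gave 2196 higher and 475 lower. A gap of at least 1.5-fold between the lowest value of the higher group and the highest of the lower one was left in 28 genes higher and 115 lower. The median log2 fold change of all tested genes was -0.02. Every adjusted p of a named gene with groups apart lay between 0.451 and 0.876 in edgeR, and these are not repeated gene by gene.

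Among well-expressed genes, those with the smallest unadjusted p on the lower side joined antiviral genes with genes of no single theme. Podxl2, a sialomucin of the podocalyxin family (chromosome 6, 88842558 to 88875044, GRCm38), measured 41.2, 62.3 and 28.4 CPM against 128, 153 and 153 CPM (log2 fold change -1.72, SE 0.31), so the highest functional tumor was still below every non-functional one by 2.06-fold. Ckb, the brain-type creatine kinase, measured 17.5, 25.8 and 22.7 CPM against 52.3, 138 and 80.7 CPM (log2 fold change -2.04, SE 0.38). Dusp26, a protein phosphatase, measured 8.63, 7.66 and 2.67 CPM against 19.2, 80.6 and 74.2 CPM (log2 fold change -3.20, SE 0.66), with M4 far below M5 and M6. The calcium-binding protein gene S100a16 was at 8, 5.66 and 7.79 CPM against 21.9, 19.1 and 36.6 CPM (log2 fold change -1.86, SE 0.35). Fam155a, an auxiliary subunit of the sodium leak channel NALCN, varied little within each group, at 46, 50.5 and 46 CPM against 83.6, 109 and 97.2 CPM (log2 fold change -1.02, SE 0.19). Cd24a, a surface glycoprotein, was at 18.5, 5.2 and 20.6 CPM against 47.4, 45.2 and 44.8 CPM (log2 fold change -1.63, SE 0.48), and the 3 non-functional values were nearly equal. The long noncoding RNA AC102496.1 was at 9.1, 19.3 and 26.6 CPM against 80.8, 148 and 58.1 CPM (log2 fold change -2.38, SE 0.49). The remaining genes chosen in this way (Amy2a5, Ctrb1, Irf7, Isg15, Bst2, Ifitm3 and H2-Q6) belong to the acinar and interferon groups described further on.

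On the higher side the shifts were smaller and the 3 values within a group closer together. Snap91, the clathrin assembly protein AP180 of the synaptic vesicle cycle (chromosome 9, 86765923 to 86880654, GRCm38), measured 61.9, 67.4 and 59.4 CPM against 36.2, 33 and 34.8 CPM (log2 fold change 0.86, SE 0.18). Smcr8, which acts with C9orf72 in autophagy, was at 79, 88.8 and 78.3 CPM against 47.8, 32.3 and 40.5 CPM (log2 fold change 1.03, SE 0.21). Camta1, a calmodulin-binding transcription activator, was at 73.3, 90.3 and 109 CPM against 44.5, 36.1 and 20.3 CPM (log2 fold change 1.44, SE 0.33), the largest log2 fold change among these genes. For these 3 the lowest functional tumor exceeded the highest non-functional one by 1.64-, 1.64- and 1.65-fold. Cpeb2, a binding protein of cytoplasmic polyadenylation elements, was at 38.8, 67.8 and 61.3 CPM against 23.5, 26.9 and 17.7 CPM (log2 fold change 1.30, SE 0.29), and Thsd4, a protein of the fibrillin matrix, at 46.4, 59.9 and 53.6 CPM against 28.8, 21 and 25.3 CPM (log2 fold change 1.09, SE 0.22). Lcorl, a nuclear receptor corepressor-like gene, was at 89.8, 89.6 and 103 CPM against 48.1, 27.7 and 51.3 CPM (log2 fold change 1.15, SE 0.27). Soat1, which esterifies cholesterol for storage, measured 212, 287 and 243 CPM against 151, 131 and 121 CPM (log2 fold change 0.88, SE 0.21). Lmtk2, a membrane kinase known to bind p35, measured 93.7, 107 and 131 CPM against 65.1, 48.7 and 63.3 CPM (log2 fold change 0.91, SE 0.22).

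The other genes with the smallest p or widest gap on this side were G2e3 (an E3 ubiquitin ligase, 86.6, 78.1 and 78.8 CPM against 51.9, 43.8 and 46.6 CPM), Fsd1l (60.9, 67.5 and 76.8 CPM against 38.3, 31.5 and 41.1 CPM), Fam210b (157, 164 and 178 CPM against 111, 86.8 and 95.2 CPM), Gm2762 (11.1, 13.8 and 11.8 CPM against 6.62, 6.2 and 5.1 CPM) and Mars2, the mitochondrial methionyl-tRNA synthetase, at 10.5, 10.9 and 10.5 CPM against 6.23, 5.46 and 6.29 CPM. Their log2 fold changes were 0.78, 0.89, 0.77, 1.03 and 0.83. Suz12, also named by its p, is described with the chromatin regulators.

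**Figure D1:**
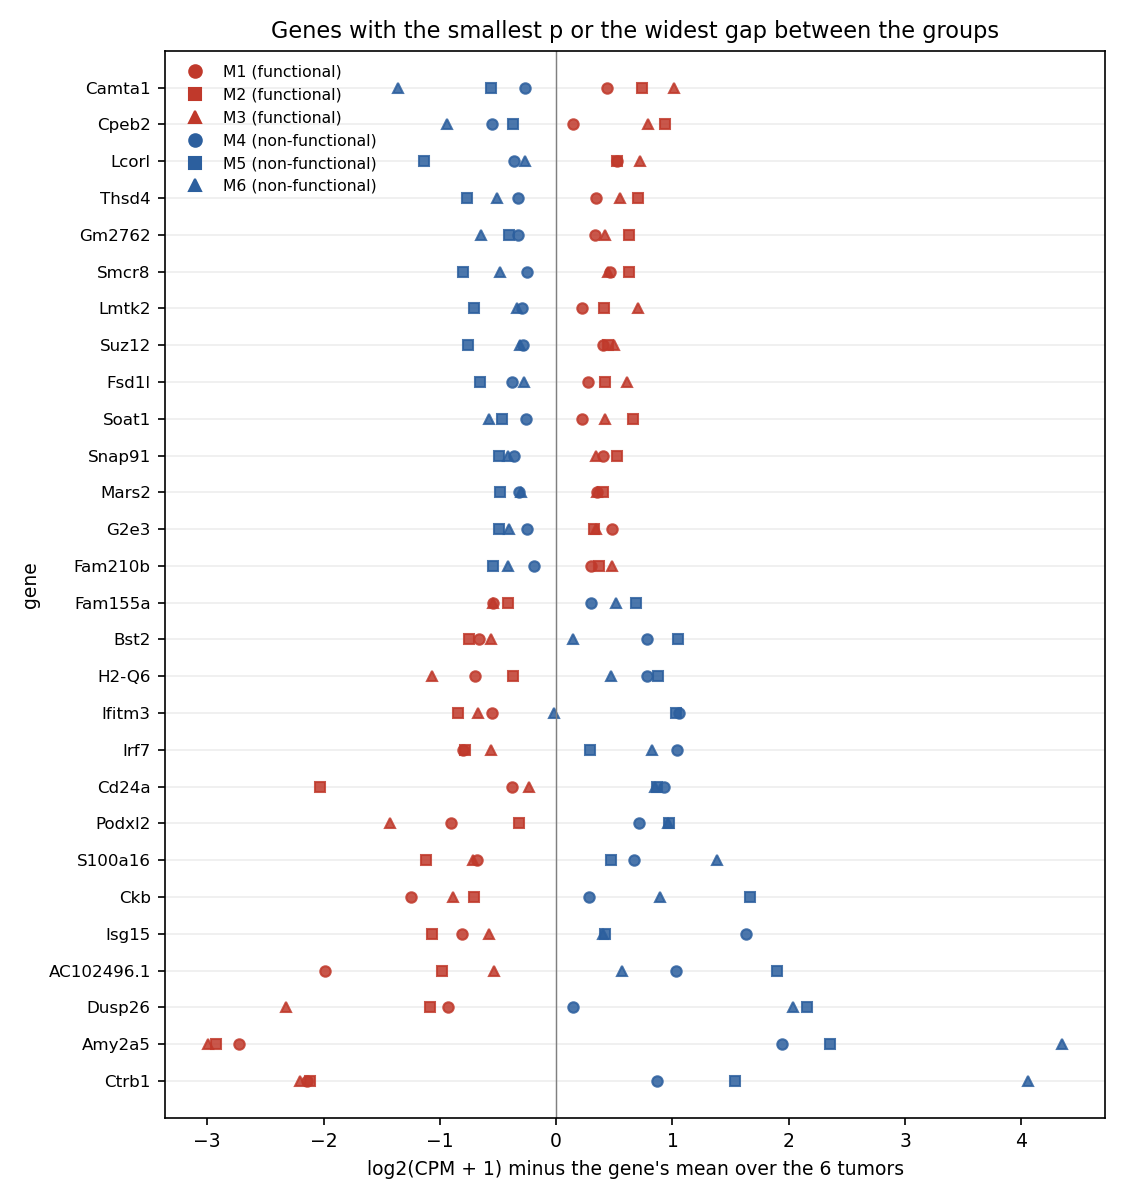
Values of the 28 genes with the smallest unadjusted p or the widest gap between the groups, as log2(CPM + 1) minus the gene's mean over the 6 tumors, 1 point for each tumor. Red points are functional and blue points non-functional tumors. The groups do not overlap for any gene shown, since the genes were chosen for this, and the spread among non-functional tumors is wide for Dusp26, AC102496.1, Amy2a5 and Ctrb1.

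The hormone genes, which give the groups their name, did not separate them. Ins2 measured 66558, 10851 and 8589 CPM in M1, M2 and M3, and in M4, M5 and M6 48015, 71785 and 103288 CPM (log2 fold change -1.38, SE 1.09), and Ins1 measured 24664, 7092 and 4495 CPM against 19379, 22139.7 and 19979 CPM (log2 fold change -0.76, SE 0.78). The functional M1 lay within the range of the non-functional tumors, whereas M2 and M3 had the least insulin RNA of the 6. Summed over both genes, insulin was 40750 ± 43778 CPM in the functional tumors and 94862 ± 27948 CPM in the non-functional ones (mean ± SD, n = 3 each). An exact two-sided permutation test gave p = 0.2, where 3 against 3 tumors cannot go below 0.1. Of all counts, insulin took 1.47 to 8.83% in the functional and 3.8 to 11.8% in the non-functional tumors. The ratio of Ins2 to Ins1 was 2.7, 1.53 and 1.91 against 2.48, 3.24 and 5.17 (exact permutation p = 0.2).

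None of the 7 tested hormone genes lay apart, where 7.7% of all genes did so upward and 7.1% downward. Iapp, the amyloid peptide released with insulin, was at 10524, 18612 and 6905 CPM against 8279.6, 17846 and 10045 CPM (log2 fold change -0.01, SE 0.64). Sst, somatostatin of delta cells, was at 124, 2874 and 3.22 CPM against 98.7, 62.4 and 3.22 CPM (log2 fold change 4.19, SE 2.10), so the higher mean of the functional group came from M2. Gcg, glucagon of alpha cells, was likewise highest in M2, at 11.6, 271 and 58.8 CPM against 14.7, 23.9 and 40.3 CPM (log2 fold change 2.11, SE 0.99). Pancreatic polypeptide, Ppy, was at 326, 407 and 619 CPM against 266, 1995 and 70.7 CPM (log2 fold change -0.79, SE 1.03) and Pyy at 5.55, 48.2 and 192 CPM against 8.91, 325 and 61.8 CPM (log2 fold change -0.69, SE 1.38), both highest in the non-functional M5. Ghrl, ghrelin, did not pass the filter, with 4, 11 and 2 counts against 6, 22 and 6.

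The secretory machinery and the identity genes of the beta cell also overlapped for the most part. In the hormone processing and granule list 1 of 19 tested members lay apart, Sytl4, the granuphilin that docks insulin granules, at 427, 643 and 308 CPM against 306, 138 and 102 CPM (log2 fold change 1.33, SE 0.47). Its highest member, chromogranin A (Chga), was at 25278, 4204 and 5446 CPM against 17631, 8160.1 and 7403 CPM (log2 fold change 0.07, SE 0.84). In the insulin secretion list 2 of 25 lay apart, in opposite directions, where 7.7% of all genes lay apart and higher and 7.1% lower. Cacna1c, a subunit of L-type calcium channels, was higher at 69.7, 116 and 107 CPM against 54.4, 63.2 and 43.5 CPM (log2 fold change 0.86, SE 0.26). With an offset for exon length the groups overlapped in Cacna1c (log2 fold change 0.58). Abcc8, the sulfonylurea receptor and the highest member, overlapped at 1611, 2579 and 1340.1 CPM against 1516, 2205 and 1221 CPM (log2 fold change 0.16, SE 0.41), as did the incretin receptor Glp1r at 544, 344 and 531 CPM against 432, 366 and 504 CPM (log2 fold change 0.12, SE 0.28).

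Among 19 tested beta cell transcription factors, 3 lay apart and all were higher in the functional tumors, where 7.7% of all genes were. They were St18 at 141, 134 and 231 CPM against 89.5, 60.7 and 111 CPM (log2 fold change 0.96, SE 0.31), Glis3, an activator of the insulin gene, at 151, 158 and 219 CPM against 104, 73.9 and 124 CPM (log2 fold change 0.80, SE 0.26), and Myt1, a factor of endocrine development, at 103, 158 and 138 CPM against 70.5, 63.8 and 95.4 CPM (log2 fold change 0.79, SE 0.25). The list's median was 0.14, and its highest member, Mlxipl, overlapped at 784, 962 and 1462 CPM against 807, 1252 and 874 CPM (log2 fold change 0.13, SE 0.36). Mafa and Nkx6-1 had negative log2 fold changes (-0.62 and -0.90) with overlapping groups. No member of the alpha, delta and PP cell list (11 tested, highest member Ppy) or of the progenitor list (17 tested, highest member Cd81 at 244, 158 and 251 CPM against 249, 313 and 334 CPM) lay apart. The calcium-sensing receptor Casr was the only member of 15 hormone receptors to do so, at 71.4, 65.9 and 83.4 CPM against 42.3, 14.2 and 54.3 CPM (log2 fold change 0.99, SE 0.45).

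Every interferon or MHC class I gene whose groups lay apart was lower in the functional tumors. Of 29 members, all tested, 15 lay apart and lower (7.1% of all genes did) and none lay apart and higher. The log2 fold change was below 0 for 27, with a median of -0.61. At an unadjusted p under 0.05 in edgeR 11 were lower, as were 4.65% of all genes. Summed over the list, the level overlapped at 1722, 2410 and 1953 CPM against 2900, 3172 and 2373 CPM, with M6 just below M2. Irf7, the amplifier of the response (chromosome 7, 141262706 to 141266481, GRCm38), measured 11.4, 11.5 and 13.7 CPM in M1, M2 and M3, and in M4, M5 and M6 43.4, 25.5 and 37.2 CPM (log2 fold change -1.54, SE 0.28). Irf9, the DNA-binding part of the STAT complex, measured 21.7, 26.5 and 24.1 CPM against 41.3, 41.7 and 34.2 CPM (log2 fold change -0.70, SE 0.21). Stat2 at 75.5, 59.2 and 77.6 CPM against 83.6, 57.4 and 56.8 CPM (log2 fold change 0.10, SE 0.24) and Irf1 at 78.9, 71.8 and 71.6 CPM against 90.3, 90.2 and 67.9 CPM (log2 fold change -0.16, SE 0.20) overlapped.

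Antiviral effectors had gaps on both sides of the 1.86-fold gap of Irf7. Isg15, a ubiquitin-like protein attached to other proteins (chromosome 4, 156199424 to 156200818, GRCm38), measured 2.78, 2.16 and 3.44 CPM against 19.5, 7.86 and 7.76 CPM (log2 fold change -2.07, SE 0.50), and its lowest non-functional value was 2.26 times the highest functional one. Bst2, the tetherin that holds virus particles at the cell surface, measured 15.8, 14.9 and 17.1 CPM against 44.8, 54.1 and 28.5 CPM (log2 fold change -1.41, SE 0.28). Ifitm3, a membrane protein that blocks virus entry, is no member of the list and was named by its p, at 34, 27.6 and 31.3 CPM against 106, 104 and 49.8 CPM (log2 fold change -1.49, SE 0.32). The RNA-binding genes Ifit1 and Ifit3 were at 4.57, 3.93 and 5 CPM against 12.6, 10.5 and 10.2 CPM (log2 fold change -1.30, SE 0.33) and 9.38, 7.19 and 10.5 CPM against 34.6, 16.9 and 28.2 CPM (log2 fold change -1.56, SE 0.35). Oas1a, which makes the activator of RNase L, was at 7.79, 7.61 and 6.34 CPM against 32.6, 16.9 and 14.4 CPM (log2 fold change -1.55, SE 0.39). In each of these 6 genes the 3 functional values were close to each other and the non-functional ones ranged wider, with M4 the highest tumor in 5 and M5 in Bst2.

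The guanylate-binding proteins Gbp2 and Gbp3 were at 8.68, 5.5 and 8.65 CPM against 46.1, 15.2 and 10.1 CPM (log2 fold change -1.64, SE 0.59) and 10.6, 6.31 and 11.1 CPM against 23.7, 12.1 and 14.9 CPM (log2 fold change -0.86, SE 0.39). Cxcl10, a chemokine that draws T cells, was at 0.793, 0.933 and 1.41 CPM against 15.7, 1.6 and 2.87 CPM (log2 fold change -2.68, SE 0.90), with M4 alone well above the rest. Ifi44 was at 6.18, 3.67 and 3.31 CPM against 14.2, 9.23 and 12.2 CPM (log2 fold change -1.43, SE 0.40) and Oasl2 at 19.9, 16.3 and 30.7 CPM against 38.6, 32.2 and 30.9 CPM (log2 fold change -0.61, SE 0.29). Mx1 (37.2, 12.4 and 2.82 CPM against 44.3, 24.3 and 4.38 CPM), Rsad2 (29.4, 92.3 and 20.4 CPM against 60.5, 72 and 43.8 CPM), Ifit2 (9.94, 3.64 and 23.4 CPM against 20.7, 9.08 and 15.6 CPM) and Usp18 (51.6, 75.7 and 44.1 CPM against 41.2, 52.5 and 72.5 CPM) overlapped, and in Rsad2 the highest tumor was the functional M2.

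Of the genes that build and load MHC class I, the light chain B2m was lower in all functional tumors at 213, 312 and 212 CPM against 399.5, 440.4 and 318 CPM (log2 fold change -0.65, SE 0.26), with M2 and M6 almost equal. The peptide transporter subunit Tap1 was at 22.1, 31.8 and 33.4 CPM against 54.6, 38.5 and 34.5 CPM (log2 fold change -0.55, SE 0.27). The nonclassical heavy chain H2-Q6 was at 18.7, 23.8 and 14.3 CPM against 53.9, 57.6 and 43.4 CPM (log2 fold change -1.45, SE 0.26). The classical heavy chains overlapped, H2-K1 at 318, 608 and 398 CPM against 595, 757 and 535 CPM (log2 fold change -0.51, SE 0.32) and H2-D1 at 388, 624 and 435 CPM against 595, 717 and 538 CPM (log2 fold change -0.36, SE 0.29). So did the immunoproteasome subunits Psmb8, Psmb9 and Psmb10 and the loading genes Tap2, Tapbp and Nlrc5.

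**Figure D2:**
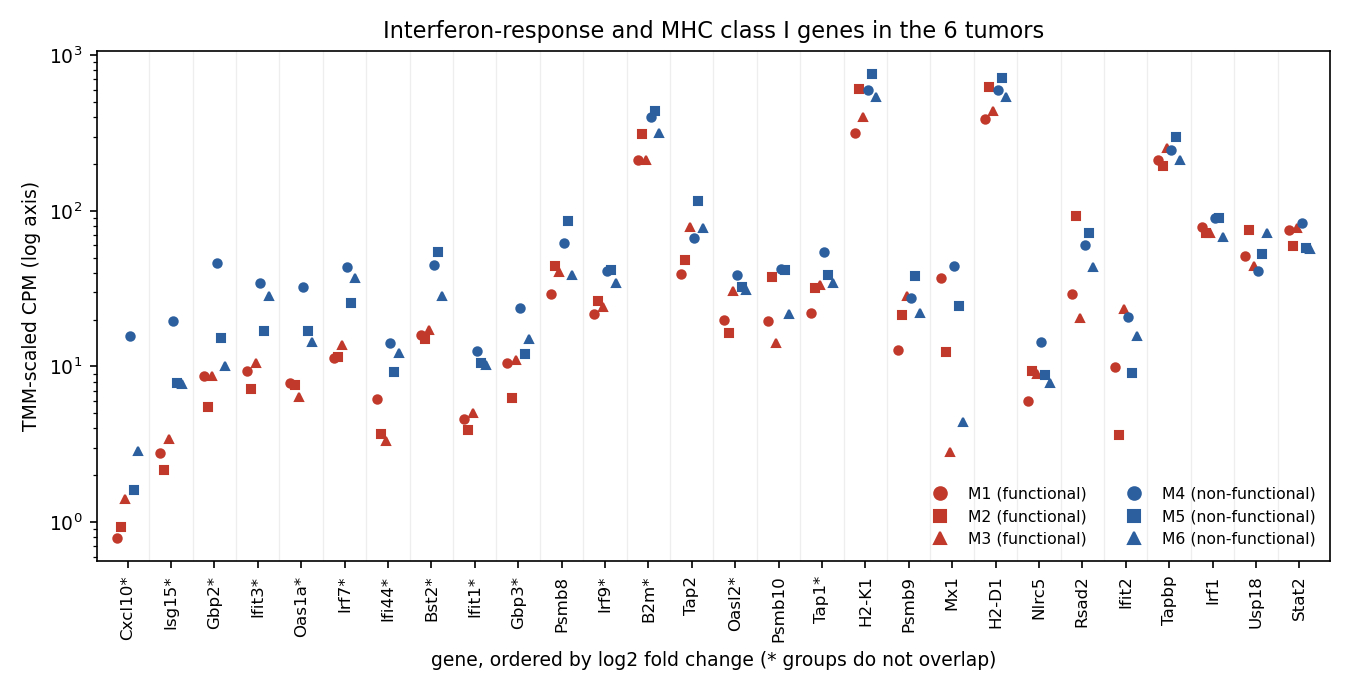
TMM-scaled CPM (log axis) of 28 of the 29 interferon-response and MHC class I genes, 1 point for each tumor, ordered from the most negative log2 fold change on the left. Red points are functional and blue points non-functional tumors, and an asterisk marks genes whose groups do not overlap. The 3 red points lie below the 3 blue ones in these genes, and M4 is the highest blue point in many of them.

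Short stretches of the promoters are shown because these genes were lower together and an element can be read in some of them. Only promoters with the element are shown. The element searched was GAAANNGAAA, the paired half-site bound by interferon regulatory factors and STAT complexes, and its reverse complement TTTCNNTTTC, in the 250 bases before each start. Promoter sequences came from RefSeq on GRCm38.p6, and 24 of the 29 list members had one. The element was present in 9 of the 14 promoters of members that lay apart and lower (64.3%), in 2 of the 10 of members that overlapped (20%), and in 821 of the 27025 promoters in the table (3.04%). Among all genes that lay apart it was found in 6.92% of 809 promoters of genes lower and in 1.8% of 887 promoters of genes higher in the functional tumors. Copies may overlap each other, as in Isg15, and the stretch shown for Ifit3 holds 1 of its 2 copies. The list was chosen for its interferon-response genes, so these shares are a description, and no test was run on them. A match is a run of letters and does not show binding. The stretches below run 5′ to 3′ along the gene's strand, with every copy of the element in capitals. They lie at chr4:156200855-156200904 on the minus strand for Isg15, chr5:120907526-120907559 on the minus strand for Oas1a, chr19:34640784-34640833 on the plus strand for Ifit1, chr19:34583387-34583436 on the plus strand for Ifit3, chr8:71537567-71537616 on the minus strand for Bst2, chr2:122147528-122147577 on the plus strand for B2m and chr3:142620584-142620633 on the plus strand for Gbp2.
Isg15: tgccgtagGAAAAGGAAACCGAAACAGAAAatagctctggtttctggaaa
Oas1a: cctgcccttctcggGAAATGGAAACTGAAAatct
Ifit1: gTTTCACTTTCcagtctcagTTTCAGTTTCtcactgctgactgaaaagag
Ifit3: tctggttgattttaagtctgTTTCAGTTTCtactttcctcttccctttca
Bst2: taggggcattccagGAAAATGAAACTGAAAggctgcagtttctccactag
B2m: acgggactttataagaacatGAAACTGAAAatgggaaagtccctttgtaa
Gbp2: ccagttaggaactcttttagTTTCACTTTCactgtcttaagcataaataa
Isg15 held 3 overlapping copies within the 250 bases and Oas1a, Ifit1, Ifit3 and Bst2 held 2 each. Irf7, Irf9, Ifi44, Oasl2 and Tap1 lay apart without a copy in this window, which says only that these letters are not there.

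Genes of myeloid cells were lower in the functional tumors in the same direction. Of 23 tested macrophage and myeloid markers 9 lay apart and lower and none higher, against 7.1% and 7.7% of all genes, the log2 fold change was below 0 for 22, and the median was -0.91. The MHC class II genes, which present peptides to helper T cells, led the list. H2-Aa measured 41.6, 76.5 and 109 CPM in M1, M2 and M3, and in M4, M5 and M6 477, 149 and 182 CPM (log2 fold change -1.83, SE 0.54). H2-Ab1 (33.1, 63.6 and 99.98 CPM against 429, 124 and 156 CPM), H2-Eb1 (36.2, 71.5 and 109 CPM against 492, 142 and 170.1 CPM) and the invariant chain Cd74 (116, 232 and 285 CPM against 1079, 388 and 517 CPM) had the same order of tumors, with M1 the lowest and M4 the highest. Their log2 fold changes were -1.85, -1.89 and -1.65. The signalling adaptors Tyrobp and Fcer1g were at 13.6, 16.8 and 17.2 CPM against 43.3, 42.6 and 18.9 CPM (log2 fold change -1.14, SE 0.35) and 13.5, 17.3 and 17.2 CPM against 48.3, 42.6 and 22.4 CPM (log2 fold change -1.24, SE 0.33). Aif1 was at 5.64, 8.43 and 8.35 CPM against 33.3, 23.4 and 10.2 CPM (log2 fold change -1.58, SE 0.47), and Ms4a7 at 12.3, 18.7 and 19.4 CPM against 31, 38.2 and 21.2 CPM (log2 fold change -0.84, SE 0.32). Osteopontin, Spp1, which is also on the ductal list, was at 137, 12.6 and 77 CPM against 265, 189 and 245 CPM (log2 fold change -1.62, SE 0.71).

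General macrophage genes overlapped, among them Lyz2 (202, 226 and 242 CPM against 575, 407 and 174 CPM), Csf1r (47.9, 49.5 and 77.5 CPM against 138, 75.1 and 46.6 CPM), Adgre1 (24.3, 20.4 and 32.9 CPM against 55.2, 24.1 and 21.2 CPM) and Cd68 (29.6, 28 and 28.1 CPM against 47.8, 59.1 and 23.4 CPM), with M6 within or below the range of the functional tumors. Summed over the 25 genes of the list, the level was 1057, 1445 and 1582 CPM against 4614, 2468 and 2043 CPM. In bulk tumor RNA, fewer cells of a type and less RNA per cell cannot be told apart, here and in the groups that follow. Without M4 the median of the list was -0.67 with 19 of 23 members below 0, 9 of them apart and 3 members apart and higher, and that of the interferon list was -0.53 with 27 of 29 below 0. The interferon genes and these markers were both highest for many members in M4, where mitochondrial genes held 32.1% of the counts, and the part of immune cells in the interferon values was not tested.

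B cell and plasma cell genes were lower as well, at low levels. Of 25 lymphocyte markers 11 were tested, and 6 of these lay apart and lower and none higher, against 7.1% and 7.7% of all genes (median -1.11). Without M3, 9 of the 11 lay apart and lower (median -1.79), against 11% of all genes. Without M6, 7 did, against 16.5% of all genes. With M1, M2, M4 or M5 left out the number stayed at 6, against 9.95 to 14.6% of all genes. The plasma cell genes Jchain and Igkc were at 9.68, 42.4 and 32.7 CPM against 45.4, 249.8 and 102 CPM (log2 fold change -2.23, SE 0.73) and 37.3, 300.2 and 258 CPM against 328, 1797 and 436 CPM (log2 fold change -2.11, SE 0.91), both highest in M5, and M4 differed little from M2 in either. Mzb1 was at 1.42, 2.19 and 2.09 CPM against 2.19, 7.06 and 3.07 CPM (log2 fold change -1.11, SE 0.57). The B cell receptor gene Cd79b was at 1.31, 1.24 and 1.6 CPM against 7.79, 2.97 and 3.89 CPM (log2 fold change -1.82, SE 0.52). The T cell kinase gene Lck was at 0.676, 1.08 and 0.939 CPM against 6.13, 1.66 and 1.41 CPM (log2 fold change -1.76, SE 0.70). Ighm did not follow, at 19.2, 355 and 524 CPM against 503, 182 and 24.1 CPM (log2 fold change 0.34, SE 1.22). Over all 25 members, untested ones included, 12 lay apart and lower, where 5.15% of the 30408 genes with a count in some tumor did. The untested members did not reach 1 CPM in 3 tumors. Summed over the 25 genes, the level overlapped at 124, 730 and 945 CPM against 1028, 2353 and 713 CPM, with M6 below M2 and M3.

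Digestive enzyme genes of acinar cells were close to absent from the functional tumors and present at low levels in all 3 non-functional ones. Amy2a5, a pancreatic amylase (chromosome 3, 113247178 to 113258837, GRCm38), had 12, 7 and 3 counts in M1, M2 and M3 and 647, 1484 and 8381 in M4, M5 and M6, or 0.28, 0.113 and 0.064 CPM against 31.5, 42.4 and 172 CPM (log2 fold change -9.08, SE 1.00). It is not on the acinar list and was named by its p. Amy2a5 passed the filter through the non-functional tumors alone, so it had to lie apart. Ctrb1, chymotrypsinogen, was at 0.0466, 0.0644 and 0 CPM against 7.4, 12.4 and 75.6 CPM. Cela3b, an elastase, had no count in the functional tumors and 1.85, 3.51 and 15.9 CPM in the others, which is at least 455-fold lower when 3 counts over the functional group are taken as the floor. Prss2 (trypsin) was at 0, 0.0161 and 0 CPM against 2.68, 4.29 and 28.8 CPM, Cpa1 (carboxypeptidase) at 0.0233, 0 and 0.0213 CPM against 2.87, 4.29 and 30.9 CPM and Cpb1 at 0, 0.0322 and 0 CPM against 3.16, 2.66 and 25.7 CPM. In each of these genes M6 was the highest tumor by a wide margin.

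The list holds 35 acinar markers, of which 34 are in the table and 1 of these had no count in any tumor. Only 14 passed the filter, 11 of them through the non-functional tumors alone, and such a gene had to lie apart, so no share is given for the tested members. Over all 34, whatever their level, 20 lay apart and lower and none higher, where 5.15% of the 30408 genes with a count in some tumor lay apart and lower. Members with a few counts in one tumor are among the 20. Bhlha15 (Mist1), a factor of secretory cells, overlapped at 73, 60.8 and 24.4 CPM against 49.98, 21.4 and 59 CPM (log2 fold change 0.28, SE 0.49). Ptf1a and Rbpjl, the factors that define acinar cells, had 0 to 20 counts in every tumor. Taking the list out before scaling left 1169 genes apart and higher and 1063 lower.

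Endothelial markers had a median of -0.68 and 2 of 24 tested members apart and lower, against 7.1% of all genes. The log2 fold change was below 0 for 21 of the 24, and 5 were lower at an unadjusted p under 0.05, as were 4.65% of all genes. With an offset for exon length 3 lay apart and lower. The 2 apart without it were Egfl7, a secreted endothelial factor, at 58.4, 33.9 and 41 CPM against 87.8, 145 and 74.3 CPM (log2 fold change -1.21, SE 0.33), and the VEGF receptor Flt1 at 149, 52.9 and 67 CPM against 152, 220.4 and 176 CPM (log2 fold change -1.03, SE 0.40), where M1 was just below M4. Plvap, the highest member, overlapped at 354, 125 and 109.8 CPM against 323, 523 and 326 CPM (log2 fold change -0.99, SE 0.49). No member of the collagen (20 tested, highest Col4a1 at 1028, 524 and 822 CPM against 1029, 646 and 627 CPM), fibroblast (20 tested, highest Sparc at 729.8, 469 and 619 CPM against 1422, 836 and 419 CPM) or pericyte list (15 tested, highest Rgs5 at 883, 388 and 528 CPM against 1066, 495 and 438 CPM) lay apart, and M4 was the highest tumor in the sums of all 3 lists. Among 18 ductal and keratin genes 2 lay apart and lower, Spp1 among them, and Krt7 overlapped at 213, 664 and 249 CPM against 275, 598 and 277 CPM. In the erythrocyte list 1 of 5 tested members, Hbb-bt, was lower at 24.5, 24.2 and 5.57 CPM against 30.9, 27.3 and 33.5 CPM (log2 fold change -0.76, SE 0.52), and Hba-a1 overlapped at 112, 99.3 and 29.2 CPM against 129, 146 and 99.6 CPM. Hepatocyte genes (6 tested, highest Ttr at 241, 423 and 41.2 CPM against 202, 367 and 331 CPM) and adipocyte genes (3 tested, highest Lpl at 199.7, 57.9 and 74.9 CPM against 155, 107 and 34.8 CPM) overlapped.

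Ribosomal protein genes were lower in sum in M1, M3 and M6 than in the other 3 tumors, at 6199, 13009 and 6671 CPM against 12768, 18029 and 8567 CPM. The log2 fold change was below 0 for 29 of 30, with a median of -0.61, but only 4 lay apart, among them Rpl18 (149, 182 and 148 CPM against 239.7, 561 and 232 CPM), Rps3 (199.6, 272 and 216 CPM against 332, 373 and 289 CPM) and Rpl11 (92.2, 158 and 75.9 CPM against 181, 217 and 159 CPM). The log2 fold changes of these were -1.11, -0.53 and -0.77. Rpl18 and Rps3 lie on chromosome 7, where M2 was low throughout. Without M2, 29 of the 30 lay apart and lower, against 14.6% of all genes, and without M6 12 did, against 16.5%. Without M5 the median was -0.28. Rpsa, the highest member, was at 385, 1013 and 412 CPM against 1625, 1514 and 517 CPM (log2 fold change -1.01, SE 0.57).

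Chromatin regulators were the list with the largest share of tested members apart and higher in the functional tumors, and many of them have long transcripts. Of 21 tested genes of DNA methylation and the polycomb system 6 lay apart and higher and none lower, against 7.7% and 7.1% of all genes, with a median of 0.33. Suz12, a core subunit of polycomb repressive complex 2 (chromosome 11, 79993106 to 80034123, GRCm38), measured 153, 158 and 164 CPM in M1, M2 and M3, and in M4, M5 and M6 94.7, 67.6 and 93.1 CPM (log2 fold change 0.89, SE 0.20). The H3K27 demethylase Kdm6a was at 58.6, 73.5 and 55.3 CPM against 42.2, 22.4 and 51.2 CPM (log2 fold change 0.69, SE 0.32), and the H3K4 methyltransferase Kmt2d at 157, 158 and 218 CPM against 109, 91 and 133 CPM (log2 fold change 0.68, SE 0.24). The maintenance and de novo DNA methyltransferases Dnmt1 and Dnmt3a were at 197, 162 and 258 CPM against 152, 133 and 153 CPM (log2 fold change 0.50, SE 0.23) and 196, 173 and 167 CPM against 142, 106 and 148 CPM (log2 fold change 0.44, SE 0.21). Ezh1, a catalytic subunit of the same polycomb complex, was at 76.4, 73.6 and 82 CPM against 66.9, 66.8 and 72.6 CPM (log2 fold change 0.17, SE 0.17). Its counterparts Ezh2 (46.4, 61.6 and 75.6 CPM against 54.1, 60.1 and 34.1 CPM) and Eed (31.1, 21.1 and 33.8 CPM against 32.7, 23 and 31 CPM) and the highest member, Kmt2a (211, 169.5 and 344 CPM against 224, 215 and 218 CPM), overlapped. The tested members had a median merged exon length of 6954 bases, and after the offset for exon length described below 3 of the 6 still lay apart. Without M3 the median of the list was 0.17, with 7 members apart and higher and 1 lower against 12% and 11% of all genes.

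Genes of the cell cycle leaned higher in the functional tumors, and with all 6 tumors most of them overlapped. Of the 26 genes on the mitosis list 24 had a positive log2 fold change, and the median was 0.39, but M6 was low and M3 high in most of them. Only 1 lay apart and higher, where 7.7% of all genes did, and none lower. It was Ccne2 (cyclin E2), a cyclin of the G1 to S step, at 37.9, 39.4 and 45.7 CPM against 23.7, 23.1 and 32.1 CPM (log2 fold change 0.64, SE 0.22). Mki67, which marks cycling cells, was at 212, 149 and 391 CPM against 136, 151 and 97.5 CPM (log2 fold change 0.97, SE 0.38), where M2 was below M5. Top2a was at 364, 257 and 369 CPM against 270.1, 262 and 122 CPM (log2 fold change 0.60, SE 0.35). The list turned on single tumors. Without M6 its median was 0.09, without M5 17 of the 26 lay apart and higher (median 0.76) against 10.1% of all genes, and without M2 8 did (median 0.59) against 15.1%. In the DNA replication list (26 tested, median 0.33) only Orc1 lay apart and higher, where 7.7% of all genes did. It was at 2.61, 3.19 and 2.95 CPM against 1.95, 1.6 and 1.8 CPM (log2 fold change 0.71, SE 0.42), and Pcna overlapped at 225, 387 and 365 CPM against 184, 258 and 251 CPM. Brakes of the cycle were among the genes higher: Cdkn1b, the inhibitor p27, at 187, 191 and 232 CPM against 119.7, 108 and 154 CPM (log2 fold change 0.68, SE 0.22), and E2f7, a repressor of E2F targets, at 22.3, 23.4 and 49.6 CPM against 16.1, 20.7 and 13.4 CPM (log2 fold change 0.93, SE 0.38). Cdk2 was higher at 28.8, 27.7 and 47.1 CPM against 24.6, 25.5 and 24.2 CPM (log2 fold change 0.48, SE 0.27). Cdkn1c, the inhibitor p57, was lower at 2.71, 2.75 and 4.16 CPM against 7.01, 4.48 and 5.74 CPM (log2 fold change -0.84, SE 0.41), as was Ccnd3 at 48.7, 52.7 and 31 CPM against 68.6, 59 and 55.9 CPM (log2 fold change -0.47, SE 0.25). Of the 20 genes of the G1 list 4 were thus apart and higher and 2 lower, against 7.7% and 7.1% of all genes. With an offset for exon length 2 were apart and higher and 1 lower. The summed level of the list did not overlap, at 1267, 1352 and 1405 CPM against 1199, 1176 and 991 CPM.

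Of 20 tested p53 targets 3 lay apart and higher, against 7.7% of all genes. Ccng1 (cyclin G1) was at 290.5, 330.5 and 221 CPM against 203, 116 and 67.7 CPM (log2 fold change 1.12, SE 0.40), the receptor gene Eda2r at 36, 34.3 and 27.8 CPM against 21.1, 15.3 and 2.17 CPM (log2 fold change 1.35, SE 0.70) and Mdm2, the ligase that degrades p53, at 106, 107 and 90.8 CPM against 84.2, 74 and 82.5 CPM (log2 fold change 0.34, SE 0.18). Cdkn1a (p21) overlapped at 166, 298 and 163 CPM against 150.04, 186 and 59.5 CPM (log2 fold change 0.66, SE 0.45), and the list's median was 0.04. Among 19 genes mutated in human tumors 4 lay apart and higher and 1 lower, against 7.7% and 7.1% of all genes. With an offset for exon length 1 lay apart and higher and 1 lower. Pik3r3 and Mtor, of growth factor signalling, were at 19.8, 18.9 and 29.8 CPM against 17.2, 18.3 and 9.79 CPM (log2 fold change 0.60, SE 0.34) and 76.5, 65.6 and 65.4 CPM against 59.6, 44.3 and 61.2 CPM (log2 fold change 0.33, SE 0.21). Brca2 was at 32, 30.1 and 109 CPM against 20.002, 28.3 and 25.1 CPM (log2 fold change 1.22, SE 0.52), with M3 the tumor that set the mean. Daxx was lower by less than the SE at 26.1, 24.9 and 26.6 CPM against 27.2, 28.3 and 29.1 CPM (log2 fold change -0.12, SE 0.20, or 0.081 when scaled by total counts alone), and Atrx, the highest member, overlapped at 265, 186 and 259.8 CPM against 315, 205 and 202 CPM.

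In the unfolded protein response, 3 of 25 tested members were apart and higher, against 7.7% of all genes. Ern1 and Atf6, which encode the sensors IRE1 and ATF6 of the endoplasmic reticulum, were at 225, 197 and 177 CPM against 133, 59.8 and 168 CPM (log2 fold change 0.73, SE 0.37) and 188, 134 and 142 CPM against 131, 72.4 and 132 CPM (log2 fold change 0.47, SE 0.29), and Edem1, of the degradation of misfolded proteins, at 118, 126 and 115 CPM against 92.4, 95.2 and 85.4 CPM (log2 fold change 0.40, SE 0.17). The chaperone Hsp90b1, the highest member, overlapped at 1370.5, 1468 and 827 CPM against 1206, 974 and 1484 CPM. In cholesterol and fatty acid synthesis, 3 of 21 were apart and higher, against the same 7.7%, among them Acaca, which makes malonyl-CoA, at 53.8, 44.6 and 47.2 CPM against 39.95, 25.7 and 31.5 CPM (log2 fold change 0.58, SE 0.23), and Idi1, which isomerises a cholesterol precursor, at 16.6, 23.6 and 18.1 CPM against 15.9, 11.6 and 14.8 CPM (log2 fold change 0.46, SE 0.28). Acly overlapped at 2139.6, 1044 and 1252 CPM against 1472, 909.5 and 1116 CPM. Glycolysis, the nuclear-encoded respiratory chain, amino acid metabolism and cytosolic heat shock had no member apart among 23 (Aldoa under 2 gene records), 26, 18 and 15 tested. Their highest members were Pkm (675, 989 and 972 CPM against 778, 1055 and 709 CPM), Atp5b (530.1, 1036 and 507 CPM against 509, 649.8 and 572 CPM), Glul (343, 677 and 484 CPM against 303, 385 and 398 CPM) and Hspa8 (1104, 2026 and 883 CPM against 1128, 1303 and 890.2 CPM).

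Imprinted and fetal growth genes were lower in sum in the functional tumors, at 7495, 7538 and 7105 CPM against 10411, 8974 and 9068 CPM, and most of the difference was Meg3. This noncoding RNA of the Dlk1 locus measured 780.2, 1680.2 and 979 CPM against 4253, 2845 and 1692 CPM (log2 fold change -1.35, SE 0.49), with M2 and M6 almost equal. Igfbp3, which binds insulin-like growth factors, was at 421, 281 and 275 CPM against 556, 594 and 471 CPM (log2 fold change -0.73, SE 0.27). Peg3, a paternally expressed zinc-finger gene, was higher at 2252, 2033 and 2205 CPM against 1843, 1279 and 914 CPM (log2 fold change 0.69, SE 0.37). Gnas overlapped at 1774, 1862 and 1419 CPM against 1695, 2765 and 3299 CPM. Of the 24 tested members of the imprinted list 1 lay apart and higher and 3 lower, against 7.7% and 7.1% of all genes. Of 27 genes of Wnt, Notch and TGF-beta signalling the log2 fold change was below 0 for 22. The median was -0.39, against -0.02 over all tested genes. Only 2 of the 27 lay apart and lower and none higher, against 7.1% and 7.7% of all genes. They were the secreted Wnt4 at 146, 143 and 135 CPM against 164, 402 and 240.2 CPM (log2 fold change -0.93, SE 0.33) and the Wnt inhibitor Dkk2 at 5.57, 3.73 and 3.29 CPM against 9.64, 12.8 and 6.98 CPM (log2 fold change -1.22, SE 0.41). Among growth factors, Tgfa, a ligand of the EGF receptor, was higher at 117, 131 and 128 CPM against 87.3, 51.8 and 86.8 CPM (log2 fold change 0.73, SE 0.24) and Pdgfb lower at 31.1, 12.9 and 30.9 CPM against 55, 41.1 and 35 CPM (log2 fold change -0.81, SE 0.37), and Ntrk2 overlapped at 383, 134 and 186 CPM against 268, 207 and 135 CPM. Of 22 adhesion genes only Itga6 lay apart and higher, where 7.7% of all genes did. It was at 111, 99.6 and 110.4 CPM against 85, 48.7 and 82.2 CPM (log2 fold change 0.57, SE 0.25), and E-cadherin, Cdh1, overlapped at 511, 453 and 556 CPM against 359, 255 and 672 CPM.

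Few other members lay apart. Nefm (neurofilament) was lower at 11.6, 15.2 and 6.85 CPM against 25.5, 17.2 and 37.5 CPM, while Mbp was higher at 112, 121 and 144 CPM against 74.9, 93.8 and 107 CPM. The neuropeptide genes Pomc and Nmb were lower at 4.69, 2.82 and 1.92 CPM against 7.01, 5.83 and 6.1 CPM and 0.886, 0.595 and 0.769 CPM against 1.61, 2.34 and 1.07 CPM, and Ddc, which makes amine transmitters, overlapped at 822, 560.2 and 334 CPM against 600.0, 316 and 365 CPM. The immediate early genes Klf2, Ier2 and Zfp36 were lower at 13.8, 6.1 and 6.04 CPM against 20.1, 26.3 and 15.3 CPM, 8.19, 12 and 13.8 CPM against 21.7, 24.4 and 15.4 CPM and 15.7, 10.7 and 14.2 CPM against 21.8, 18.9 and 18.5 CPM, and Jund overlapped at 81.7, 134 and 148 CPM against 126, 252 and 159 CPM. Of the lysosome and autophagy genes, Lamp2 was higher at 259, 305 and 337 CPM against 249, 234 and 243 CPM and Map1lc3a lower at 30.1, 36.4 and 37.8 CPM against 48, 87.7 and 38.4 CPM, and Ctsd overlapped at 563, 579 and 541 CPM against 686, 999 and 403 CPM. The log2 fold changes of these 9 genes with groups apart were -1.25, 0.45, -1.01, -1.15, -1.25, -0.86, -0.55, 0.31 and -0.74 in that order.

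**Figure D3:**
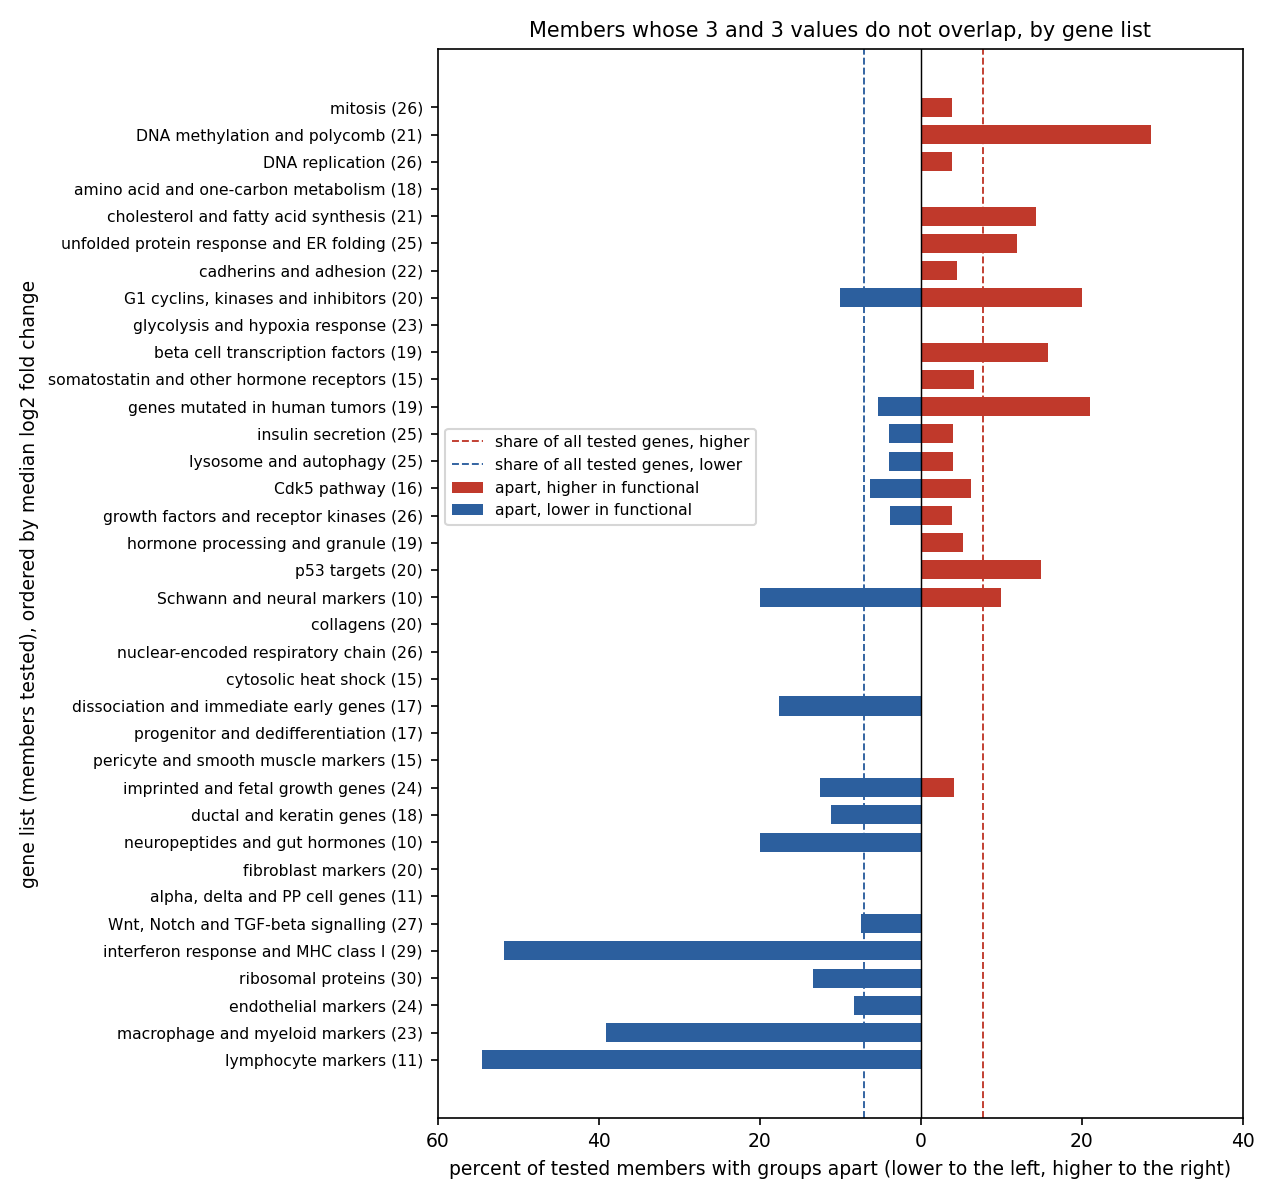
Percent of the tested members of each gene list whose 3 functional and 3 non-functional values do not overlap, drawn to the right where the functional tumors were higher (red) and to the left where they were lower (blue). Dashed lines mark the shares of all tested genes, 7.7% and 7.1%. The lymphocyte, interferon and macrophage lists reach farthest to the left and the DNA methylation and polycomb list farthest to the right. The acinar list and lists with under 10 tested members are not drawn.

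The length of the transcript moved with the result across the whole table. Protein-coding genes apart and higher in the functional tumors had a median merged exon length of 6916 bases (1090 genes) and those lower one of 2940 bases (961 genes), against 4499.5 over the 13626 tested. In the shortest quintile, 0.99% of genes lay apart and higher and 14.3% lower, and in the longest quintile 16.9% and 2.35%. The gradient was a matter of 3 tumors. The median deviation of log2(CPM + 1) from the shortest to the longest quintile went from -0.179 to 0.171 in M1 and from -0.202 to 0.18 in M3, and from 0.338 down to -0.297 in M5, while M2, M4 and M6 stayed within 0.0622 of 0. When each tumor's trend with length was removed by an offset, an alternative chosen after seeing the data, 1049 genes lay apart and higher and 926 lower, 803 and 754 of them shared with the values above. The interferon list then had 14 members apart and lower (median -0.59) and the macrophage list 8 (-0.72). The median of the ribosomal protein genes, whose exons are short, moved to -0.38, and that of the islet hormones to -0.13 from -0.69. The unfolded protein response and cholesterol lists were left with 1 member apart each. Of the 105 genes named by the rule whose groups lay apart, 77 stayed apart in the same direction, and those that then overlapped include Acaca, Atf6, Brca2, Cacna1c, Cdk2, Cdk5, Cdkn1c, Cxcl10, Daxx, Dnmt3a, E2f7, Ern1, Hbb-bt, Ier2, Kdm6a, Klf2, Kmt2d, Lamp2, Map1lc3a, Mbp, Mtor, Myt1, Nmb, Pomc and Sytl4.

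**Figure D4:**
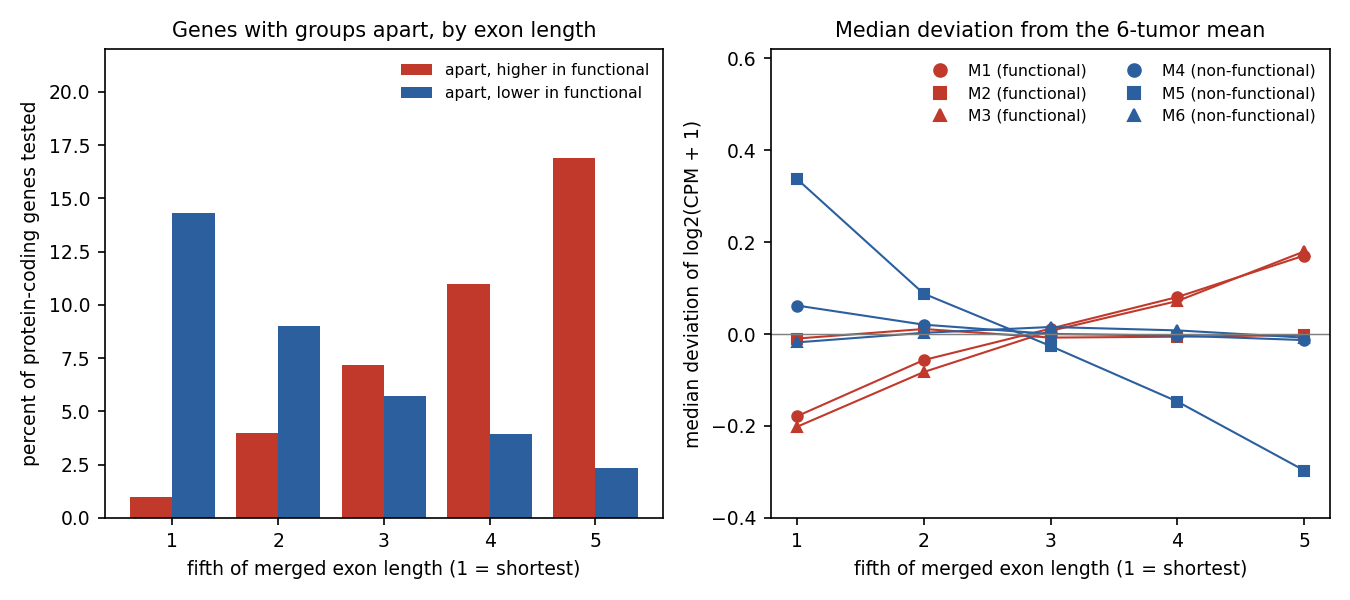
Left: percent of tested protein-coding genes with groups apart in each quintile of merged exon length, higher (red bars) or lower (blue bars) in the functional tumors. Right: median deviation of log2(CPM + 1) from the mean of the 6 tumors in each quintile, 1 line for each tumor. The red bars rise from 0.99% to 16.9% and the blue bars fall from 14.3% to 2.35%, and M1 and M3 slope opposite to M5.

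Whole chromosomes stood out in single functional tumors. In M2 the median deviation of the 1144 tested genes on chromosome 7 was -0.508 on the log2 scale and that of the 744 genes on chromosome 3 was -0.469, and in M3 that of the 518 genes on chromosome 14 was -0.396. M2 was higher on chromosome 14, at 0.28. The largest deviation of a non-functional tumor was 0.199, for M6 on chromosome 7. On chromosome 7, 14.8% of genes lay apart and lower in the functional tumors and 1.22% higher, where 7.1% and 7.7% of all genes did, and M2 was the lowest of the 6 tumors in 111 of those 169 genes lower. Without M2 the shares on chromosome 7 were 16.4% lower and 11.9% higher, against 14.6% and 15.1% of all genes. On chromosome 3 the shares were 9.14% lower and 1.08% higher with M2, and 10.9% and 18% without it. On chromosome 14 they were 5.79% lower and 1.35% higher with all tumors, and 6.95% and 5.41% without M3, against 11% and 12% of all genes. Without M2 they were 25.3% lower and 2.51% higher. Genes named above that lie on chromosome 7 or 3 include Irf7, Ifitm3, Ins2, S100a16, Gbp2 and Amy2a5. M2 was not the lowest tumor in Irf7 or Amy2a5, and in Ifitm3, Gbp2 and S100a16 the values of M1 and M3 were also below every non-functional tumor.

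**Figure D5:**
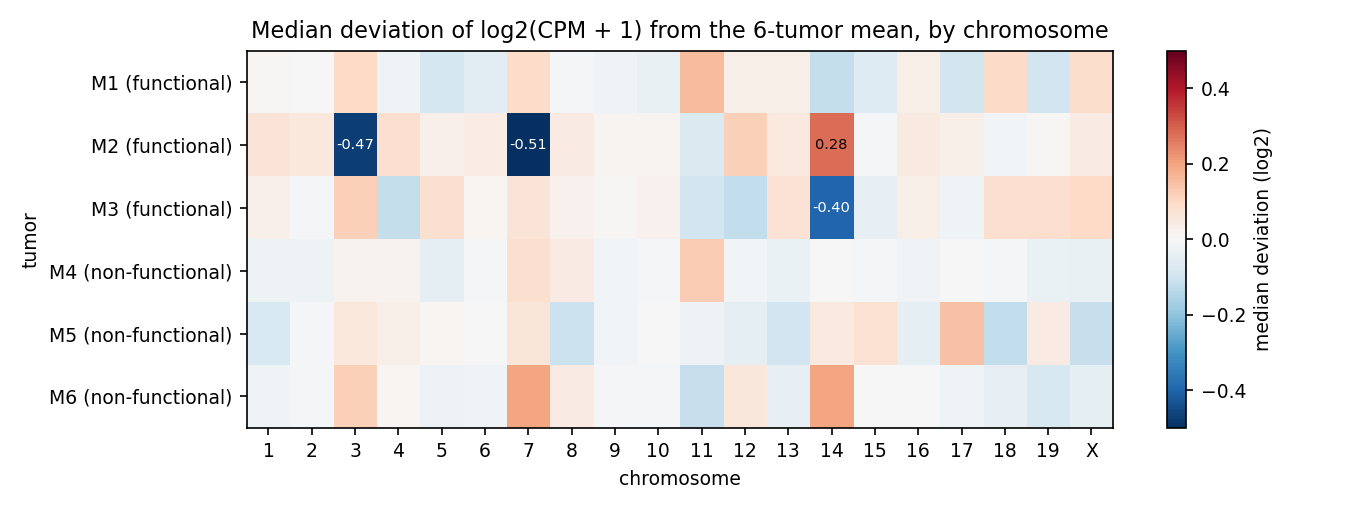
Median over the tested genes of each chromosome of log2(CPM + 1) minus the mean of the 6 tumors, 1 row for each tumor, with the color scale in log2 units from blue (below the mean) to red (above). Values of at least 0.25 in size are printed. M2 is low on chromosomes 3 and 7 and high on 14, and M3 is low on 14.

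The widest difference in the table is an uncertain one. Gm28439, an unprocessed pseudogene on chromosome 1 (24611535 to 24612410, GRCm38), had 20769, 4595 and 19289 counts in M1, M2 and M3 and 0 in all non-functional tumors. It was singled out after its values were seen. All of its 75-base windows, the length of the reads, also occur in the mitochondrial gene mt-Nd4, which had 168779, 455899 and 178577 counts against 1091550, 300836 and 202470, so reads of these 2 genes cannot be told apart. Gm28439 is the gene that limma-trend called higher, and the only gene past the threshold in edgeR with sex as a covariate. Of 149 genes checked in this way (the named genes and Gm28439), 16 shared at least 20% of their windows with another gene. They include Amy2a5 (47.8%, with Amy2a3), Oas1a (47.6%, with Oas1g), Ifit3 (41.1%, with Ifit3b), H2-Q6 (21.1%, mainly with H2-Q7), Hbb-bt (56.6%, with Hbb-bs), Hba-a1 (67.9%, with Hba-a2), Jund (45.9%), AC102496.1 (34.4%), Acaca (26.8%), Idi1 (23.6%), Pik3r3 (22.7%), Cdkn1c (22.1%) and Rpsa (24.9%), and how the estimated reads divide between such copies is uncertain.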

How the data were processed

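RNA of 3 functional and 3 non-functional tumors was sequenced as single-end reads of 75 bases. Per the labels and the study's methods, the authors trimmed reads with Trimmomatic 0.38 and quantified them with Salmon 1.4.0 against mm10, and they deposited estimated counts per gene as whole numbers, under the name TPM although the columns sum to 36468280 to 63637175. The step from transcripts to genes is not given in the sources used here. No column of per-sample values was left unused apart from the islets.

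Counts were tested as deposited. Mitochondrial genes were removed, genes below 1 CPM in more than 3 tumors dropped, and TMM factors (0.832 to 1.17) applied. The groups were compared with edgeR 4.0.16 (quasi-likelihood test, Benjamini-Hochberg adjustment, threshold 0.05) in R 4.3.3, and with DESeq2 1.42.0 and limma 3.58.1 as alternatives. Genes without annotation held at most 0.0235% of the counts. The offset for exon length, a median in each of 20 bins of length, was chosen after seeing the data. Scripts were tested on simulated data. Exact permutation tests were two-sided. Shares of counts carry counting error only, and 3 counts were taken as the floor.

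The members and the 41 gene lists were chosen with earlier results of these data known. Genes named were Cdk5r1, Cdk5, the hormones, Xist and Ddx3y, up to 12 in each direction of smallest unadjusted p among genes with groups apart and a mean of at least 10 CPM (no Gm or Rik symbols), the 6 in each direction with the widest gap, and in each list up to 5 members with groups apart and the highest member. Other genes named were chosen to show members of a list that overlapped. Where a symbol has 2 gene records, each was kept. Some genes that this rule names are not reported here.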

Additional observations from a re-analysis of the deposited data

Results flagged for a closer look

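Mitochondrial genes, which were left out of the comparison, held 6.96% of the counts in the functional M2, 32.1% in the non-functional M4 and 8.41% in the non-functional M5. These shares lay above those of all 3 normal islet libraries, which ranged from 1.76 to 4.94%. M1, M3 and M6 were within the range of the islets.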

How the results depend on the processing

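No paired analysis was possible because each library is 1 tumor and the labels pair no functional tumor with a non-functional one. No gene passed an adjusted p of 0.05 in edgeR with RLE size factors, total counts alone, mitochondrial genes kept, a mean of at least 5 CPM, the normal islets in the fit, robust dispersion, the acinar list removed or the offset for exon length, or in limma-voom, and none passed 0.1 with the settings of the report. DESeq2 called 7 higher and 50 lower, limma-trend 1 and 1 (Gm28439 and Amy2a5), no filter 1 and 9 (Gm28439, and 9 that include Amy2a5 and Ctrb1), and sex as a covariate 1 and 0 (Gm28439). Leaving out 1 tumor gave 0 to 1 in each direction, with Gm28439 higher without M2, a second record of Zc3h11a higher without M6 and Cacna1h lower without M4. Genes at an unadjusted p under 0.05 and higher numbered 1211 with total counts alone, 761 with no filter and 728 with the islets, and 223 to 472 with 1 tumor left out (223 without M5, 260 without M3). Those lower numbered 323 with total counts alone and 1175 with no filter, and 413 to 1091 with 1 tumor left out (413 without M5, 1091 without M6). Genes apart and higher numbered 2196 with total counts alone, 1933 with no filter and 28 with a gap of at least 1.5-fold, and those lower 475 with total counts alone and 115 with that gap. With 1 tumor left out the comparison is of 2 against 3, and 1527 to 2293 genes were apart and higher (2293 without M2, 2112 without M6, 1947 without M4, 1827 without M3) and 1510 to 2501 lower (2501 without M6, 2223 without M2, 1823 without M1, 1807 without M4, 1668 without M3). The filter and the smaller number of tumors widen these counts by construction, and the cause was not tested for the others.

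The log2 fold change turned sign in some overlapping genes and in Daxx. With the offset for exon length it was -0.17 for Kmt2a, -0.094 for Lpl, -0.15 for Col4a1, -0.024 for Abcc8, 0.35 for Iapp and -0.11 for Ntrk2. Scaled by total counts alone it was 0.081 for Daxx, 0.15 for Krt7, 0.086 for Rgs5, 0.21 for Atrx and 0.16 for Iapp. With sex as a covariate it was -0.16 for Hspa8, -0.15 for Hsp90b1, -0.15 for Atp5b, 0.082 for Rgs5, 0.13 for Atrx, -0.041 for Pkm and -0.16 for Abcc8. In limma-trend it was 0.38 for Ppy, -0.022 for Hsp90b1 and -0.29 for Chga. In limma-voom with a weight for each library it was 0.28 for Ppy, -0.017 for Hsp90b1, -0.052 for Chga and -0.041 for Pkm. With mitochondrial genes kept it was -0.0011 for Hsp90b1. With a mean of at least 5 CPM it was -0.019 for Hsp90b1. With no filter on low counts it was 0.028 for Krt7, 0.015 for Atrx and 0.051 for Iapp. In the fit with the normal islets it was 0.0066 for Krt7, 0.020 for Atrx and 0.030 for Iapp. In DESeq2 it was 0.0019 for Iapp. With RLE size factors it was 0.0019 for Iapp. With 1 tumor left out, the log2 fold changes that turned sign ranged from -0.16 to 0.42 for Abcc8, -0.022 to 0.55 for Acly, -0.15 to 0.44 for Atp5b, -0.15 to 0.22 for Atrx, -0.059 to 0.62 for Bhlha15, -0.036 to 0.70 for Cdh1, -1.20 to 0.58 for Chga, -0.19 to 0.32 for Col4a1, -0.60 to 0.022 for Ctsd, -0.0028 to 0.31 for Glp1r, -0.15 to 0.22 for Hsp90b1, -0.16 to 0.50 for Hspa8, -0.47 to 0.38 for Iapp, -0.21 to 0.34 for Kmt2a, -0.73 to 0.44 for Krt7, -0.57 to 0.64 for Lpl, -0.16 to 0.33 for Mlxipl, -0.35 to 0.48 for Ntrk2, -0.074 to 0.22 for Pkm, -1.33 to 1.39 for Ppy, -2.30 to 1.20 for Pyy, -0.54 to 0.36 for Rgs5 and -1.09 to 0.15 for Ttr. The cause was not tested. Few counts in the functional tumors limit the acinar genes and many lymphocyte genes. These tumors were not the shallowest: 3 counts were 0.0483 to 0.07 CPM in them and 0.0615 to 0.146 CPM in the non-functional ones. The 3 tumors a group limit every test.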

Other observations

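Several genes outside the naming rule were called by DESeq2 and not by edgeR with the settings of the report, and they were chosen here after their values were seen. Scn11a, a voltage-gated sodium channel, was at 0.0466, 1.26 and 0.726 CPM against 23.8, 40.5 and 7.93 CPM, and Cacna1h, a T-type calcium channel, at 2.22, 2.93 and 2.05 CPM against 3.6, 66.3 and 101 CPM, with M4 close to the functional tumors. Cdh3, P-cadherin, was at 0.7, 0.869 and 2.01 CPM against 3.41, 9.17 and 35.4 CPM, widest apart in M6. Kcnn4, a calcium-activated potassium channel, was at 4.01, 2.69 and 3.74 CPM against 14.1, 7.4 and 16.7 CPM. More narrowly spread within each group were Kif12, a kinesin, at 151, 151 and 161 CPM against 255, 249.6 and 260.1 CPM, and Phactr1, a regulator of protein phosphatase and actin, at 252, 155 and 194 CPM against 437, 464 and 414 CPM. Tmsb4x, which binds monomeric actin, was at 318, 335 and 413 CPM against 1041, 899 and 540.0 CPM, and the surface protein gene Ly6a, known as Sca-1, at 38.5, 18.5 and 20.6 CPM against 94.9, 87.4 and 50.3 CPM. Malat1, a nuclear noncoding RNA, was at 734, 912 and 995 CPM against 11020.4, 3732 and 788 CPM, and Rpph1, the RNA of ribonuclease P, at 0.443, 1.24 and 0.363 CPM against 13.3, 7.17 and 1.45 CPM, both highest in M4.

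Some imprinted genes whose groups overlapped varied between single tumors in both groups. Igf2 was at 776, 2.61 and 467 CPM against 672, 109.5 and 967 CPM, so M2 had little. Zim1 was at 196, 0.145 and 220.5 CPM against 112, 62 and 7.05 CPM and Plagl1 at 9.89, 80.1 and 86.8 CPM against 11.6, 30.1 and 1.09 CPM, and Dlk1 at 0.933, 20.6 and 6 CPM against 0.827, 1.89 and 0.0615 CPM.

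The annotation holds 14 tested symbols under 2 overlapping or separate gene records. The records of Zc3h11a, a gene of chromosome 1, were at 39, 97.5 and 60.7 CPM against 210, 228 and 61 CPM, and at 119, 75.3 and 105 CPM against 0, 0 and 117 CPM. Those of Nnt, the transhydrogenase of mitochondria, were at 7.16, 12.6 and 10.6 CPM against 27.5, 22.3 and 19.3 CPM, and at 22.8, 18.3 and 15.7 CPM against 0, 0.229 and 21.9 CPM. In both symbols 1 record was near 0 in M4 and M5 alone, and how reads were divided between the records was not tested.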
